A study of Mus musculus with 6 samples.

Results

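Messenger RNA of the receptor chains that bind IL-2, IL-4, IL-7, IL-9, IL-13, IL-15 and IL-21 was compared between regulatory T cells (Tregs, the CD4+ CD25-high T cells that hold immune responses in check) with and without DJ-1, the redox-sensitive protein encoded by Park7. The 9 genes were Il2ra, Il2rb, Il2rg, Il4ra, Il7r, Il9r, Il15ra, Il21r and Il13ra1, and their members on the array were the 104 probe sets whose annotation gives exactly 1 symbol that is 1 of these names. All 9 genes were found among 23152 genes with probe sets of a single symbol, on an array with 269751 probe sets, and all 9 passed the filter on low values that left 13891 genes for testing. The KO group held 3 male DJ-1-/- mice and the WT group 3 male DJ-1+/+ littermates, all 45 weeks old and untreated. Tregs were sorted from the spleen of each mouse and hybridised to 1 Affymetrix Mouse Gene 2.0 ST array per mouse, without technical replicates. The genotype is that of the whole mouse, so cells other than Tregs carry it too, and the sources used here do not describe how the allele was made.

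The common gamma chain, encoded by Il2rg, is the shared signalling subunit of the receptors for IL-2, IL-4, IL-7, IL-9, IL-15 and IL-21. It pairs with a chain specific to each cytokine and signals through the kinases JAK1 and JAK3 to STAT proteins. Tregs depend on IL-2, which they bind through CD25 (Il2ra), the beta chain (Il2rb) and the gamma chain, and which maintains Foxp3 through STAT5. IL-4 also binds a second receptor, in which Il4ra pairs with Il13ra1 instead of the gamma chain. That second receptor carries the signal of IL-13 to STAT6 and is best known from macrophages and epithelial cells.

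The RefSeq windows around the annotated transcription start, 250 bases before to 50 after it, are shown for Il13ra1, the 1 gene that passed the test below, and for Il7r, the 1 gene with a STAT-type motif in its window. Capitals mark matches on either strand of CCGCCC (a GC box core, chosen after the sequence was seen) in Il13ra1 and of TTCNNNGAA (the STAT-type motif) in Il7r. The build is GRCm38.p6. The Il13ra1 window is chrX:36111858-36112157 on the plus strand, and the Il7r window is chr15:9529827-9530126 on the minus strand.
Il13ra1: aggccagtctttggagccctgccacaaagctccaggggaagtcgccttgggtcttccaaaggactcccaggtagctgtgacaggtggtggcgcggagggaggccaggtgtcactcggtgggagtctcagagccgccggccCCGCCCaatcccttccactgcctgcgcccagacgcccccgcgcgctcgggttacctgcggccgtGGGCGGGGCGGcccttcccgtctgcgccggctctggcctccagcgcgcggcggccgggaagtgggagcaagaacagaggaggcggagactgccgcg
Il7r: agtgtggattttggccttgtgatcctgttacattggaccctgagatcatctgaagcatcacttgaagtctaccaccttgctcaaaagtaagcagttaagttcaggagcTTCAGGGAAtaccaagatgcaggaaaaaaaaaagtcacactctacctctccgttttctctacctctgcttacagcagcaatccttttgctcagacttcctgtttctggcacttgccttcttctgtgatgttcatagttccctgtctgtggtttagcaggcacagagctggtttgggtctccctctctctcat
The Il13ra1 window was 71% G and C, above 91.8% of the 32851 windows in the table, and held 3 matches of CCGCCC, a pair of them overlapping. CCGCCC was present in 35.7% of all windows, and also in those of Il4ra, Il15ra and Il21r. TTCNNNGAA was present in 8.30% of all windows and, among the 9 windows found for 8 of the genes (Il15ra has a pair of windows, and Il2rb was not matched), only in that of Il7r, where it began at base -142 with the annotated start as base 0. TATAAA was present in 13.6% of all windows and in 0 of these 9. Such matches describe the letters of the window and say nothing of binding.

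Before the members, the labels and arrays were checked. Park7 was at 6.06, 5.96 and 5.71 log2 units in KO replicates 1 to 3, against 9.48, 9.27 and 9.70 in WT replicates 1 to 3. Levels here are log2(intensity + 16) of a gene, taken as the median over its probe sets, so differences of dim genes are understated. Foxp3, the transcription factor that defines Tregs, averaged 12.73 ± 0.03 in KO and 12.66 ± 0.02 in WT (SD, n = 3 each), and Cd4 averaged 11.47 ± 0.20 in KO and 11.59 ± 0.09 in WT. Median intensity per array ran from 88.6 to 100.2. KO replicate 1 stood apart, with a mean correlation of 0.951 with the other arrays, against 0.957 to 0.964 for the others, and its tested genes deviated from the average of the remaining arrays by a median of -0.11 log2 units. Over all tested genes the median difference, KO minus WT, was -0.05, and 59.7% of the differences were below 0. Precision is limited by the number of arrays. The limma p-values set a difference against the spread between mice within these groups, moderated over all tested genes or probe sets.

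Il13ra1, the alpha chain that binds IL-13, was lower in KO Tregs, and none of the other 8 receptor genes passed the test. Its level was 6.63, 6.91 and 6.50 in KO replicates 1 to 3, against 8.14, 8.16 and 8.04 in WT replicates 1 to 3. Every KO array lay more than 1 log2 unit below every WT array, and the WT arrays lay closer together (6.68 ± 0.21 in KO, 8.11 ± 0.07 in WT, SD, n = 3 each). The difference was -1.43 (SE 0.15, 95% interval -1.77 to -1.10), or 2.70-fold lower on this scale, with a limma adjusted p of 0.00869. By its p, Il13ra1 ranked 5 of 13891 genes. In all, 0.274% of tested genes passed an adjusted p of 0.05, 37 of 38 of them lower in KO (48 of 55, or 87.3%, with quantile normalization). The call was lost without WT replicate 1 (adjusted p = 0.112), WT replicate 2 (0.0503) or WT replicate 3 (0.0510) and in an unmoderated test (0.206), over a range from 0.00102 to 0.206 across all alternatives, while the difference stayed between -1.58 and -1.11. Without KO replicate 1, the array that stood apart, it was -1.41 (adjusted p = 0.0144). In bulk RNA from sorted cells, fewer cells that express Il13ra1 and less Il13ra1 RNA per cell cannot be told apart.

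**Figure D1:**
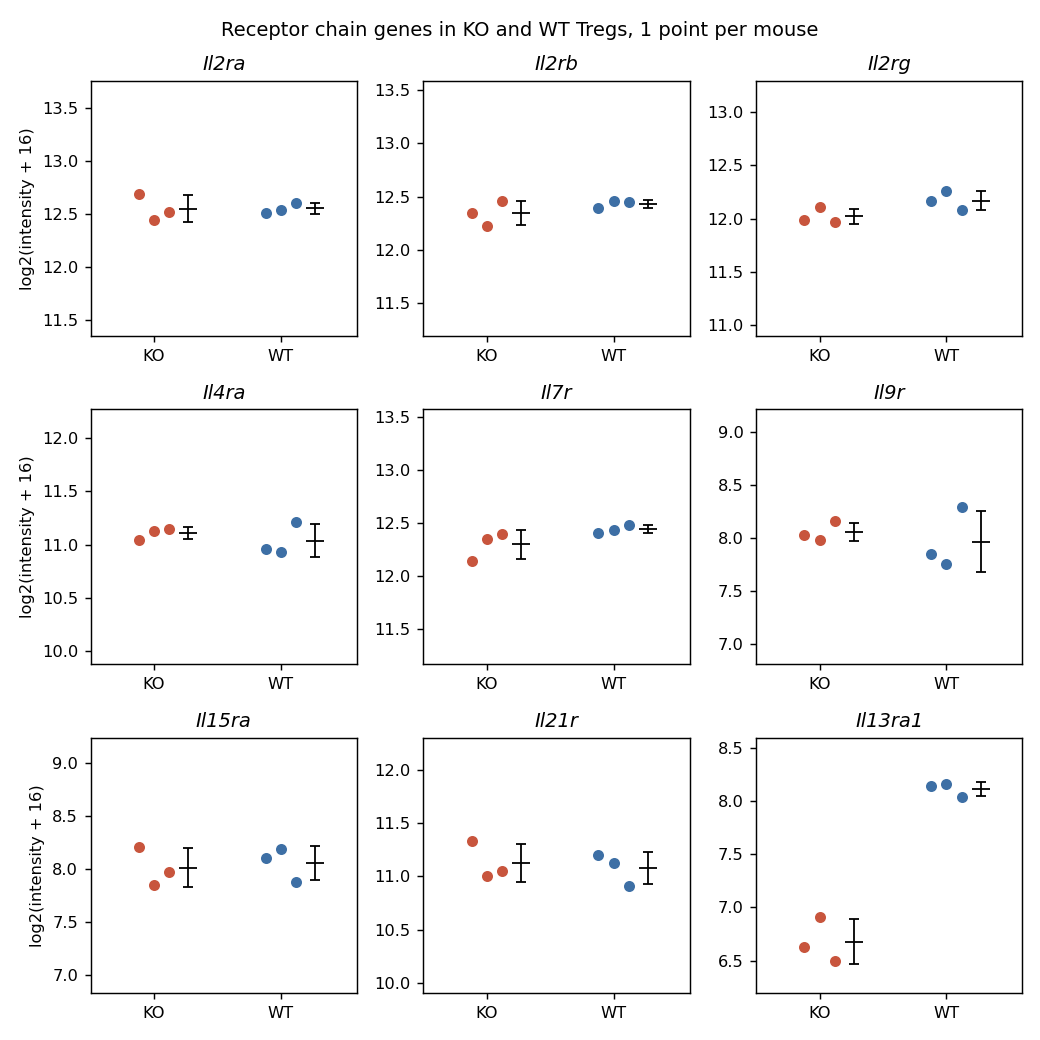
Level of each of the 9 genes, as log2(intensity + 16), in KO (red, left) and WT (blue, right) Tregs, with 1 point per mouse and black bars for the mean and SD (n = 3 each). Each panel spans the same number of log2 units. The Il13ra1 panel shows KO points at 6.50 to 6.91 and WT points at 8.04 to 8.16, while in the other panels the group means lie within 0.15 of each other.

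The difference was seen in all 12 Il13ra1 probe sets, which read the same RNA and so are not replicates. In each of the 12 probe sets the KO arrays lay below the WT arrays, where 7.64% of all probe sets on the array did so. Among 11451 tested genes with at least 4 probe sets, 23 (0.201%) had every probe set lower in KO without overlap, Il13ra1 among them. Tested one by one over all 269751 probe sets with limma, 0 of the 12 passed an adjusted p of 0.05 (the smallest was 0.169), 12 had an unadjusted p under 0.05 (7.59% of all probe sets did), and 3 probe sets passed on the whole array (0.00111%). An unmoderated test and array weights also passed 0 of the 12.

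The steepest loss was in probe set 17534061, with intensities of 7.50, 49.3 and 34.6 in KO replicates 1 to 3, against 201.0, 156.4 and 201.1 in WT replicates 1 to 3. Probe set 17534058 had 15.6, 53.8 and 33.9 in KO, against 185.9, 147.7 and 164.2 in WT. Probe set 17534062 had 14.3, 40.9 and 14.2 in KO, against 149.7, 133.4 and 75.2 in WT. In these 3 probe sets KO replicate 2 was the brightest KO array, and several KO values were of the order of the offset of 16, so their differences of -2.24, -1.92 and -1.81 log2 units are understated. Probe set 17534057 had the smallest p, with 32.8, 28.6 and 30.8 in KO against 157.0, 175.6 and 141.1 in WT, and a difference of -1.89 (SE 0.14). Here the KO arrays lay close together. Probe set 17534056 had 94.6, 211.3 and 243.4 in KO against 752.3, 692.7 and 479.7 in WT. KO replicate 1 was lowest there, and the difference was -1.79.

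Probe set 17534059 was the least even within KO, with 43.6, 231.6 and 66.0, against 422.4, 303.1 and 258.2 in WT. Its KO replicate 2 came close to the lowest WT array, and its difference of -1.66 had an SE of 0.55. Probe set 17534055 had 80.2, 86.4 and 85.4 in KO against 319.7, 310.3 and 235.5 in WT (-1.59). Probe set 17534053 had 106.3, 166.8 and 120.6 in KO against 507.9, 426.7 and 307.0 in WT (-1.54). Probe set 17534060 had 85.3, 100.8 and 63.5 in KO against 288.6, 244.4 and 260.2 in WT (-1.51). These last 3 had differences close to that of the gene.

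The remaining 3 probe sets showed the smallest differences of the 12. Probe set 17534054 had 122.5, 168.7 and 83.7 in KO against 246.2, 296.9 and 277.8 in WT (-1.08). Probe set 17534063 had 168.2, 200.6 and 204.4 in KO against 337.8, 382.9 and 350.9 in WT (-0.85). Probe set 17534052 had 93.4, 107.9 and 91.5 in KO against 150.9, 146.2 and 143.8 in WT (-0.52). Where each probe set lies in the gene was not used here. Over the 12 probe sets, KO replicate 2 was the highest KO array in 9 and KO replicate 1 the lowest in 7, while WT replicate 1 was the highest WT array in 8.

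**Figure D2:**
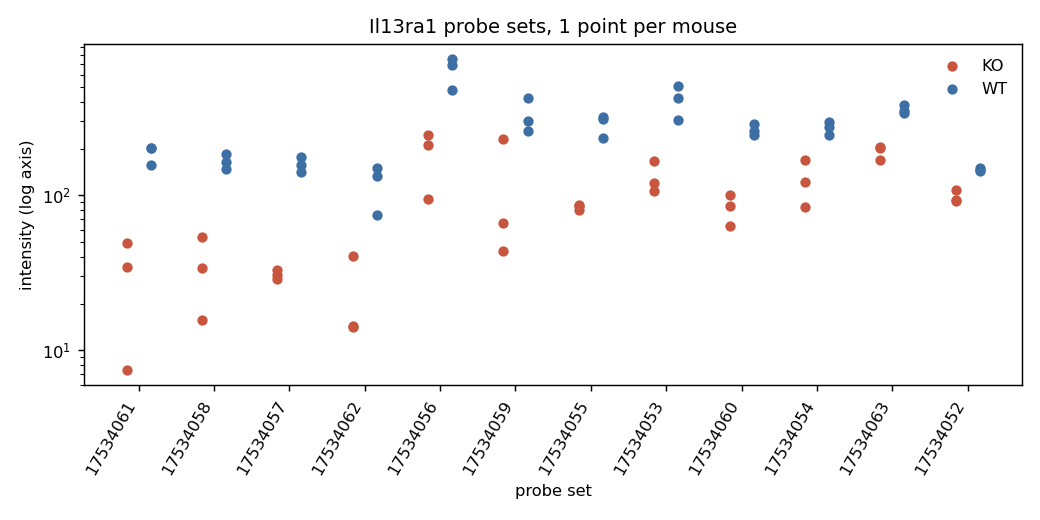
Intensity (log axis) of the 12 Il13ra1 probe sets on each array, KO in red to the left of WT in blue, with 1 point per mouse and probe sets ordered from the largest loss to the smallest. KO points span 7.50 to 243.4 and WT points 75.2 to 752.3, and within each probe set all 3 KO points lie below all 3 WT points.

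Il4ra and Il2rg, the other chains of the receptors of IL-4, did not pass the test. Il4ra, the chain common to both receptors of IL-4, was at 11.04, 11.13 and 11.14 in KO replicates 1 to 3, against 10.96, 10.93 and 11.21 in WT replicates 1 to 3. The groups overlapped through WT replicate 3, the highest of the 6, and the difference was 0.07 (95% interval -0.24 to 0.38, limma adjusted p = 0.887). Of the 14 Il4ra probe sets 13 had differences above 0, from 0.38 in 17482957 down to -0.02 in 17482951. In 1 of them the groups did not overlap, as in 13.8% of all probe sets. The common gamma chain Il2rg was at 11.99, 12.11 and 11.97 in KO, against 12.16, 12.26 and 12.09 in WT. KO replicate 2 overlapped with WT replicate 3, and the difference was -0.15 (95% interval -0.44 to 0.15, limma adjusted p = 0.721). Of its 12 probe sets 11 had differences below 0, and 4 had KO arrays below all WT arrays, as 7.64% of all probe sets had. The largest was in 17543577, with 6612, 7552 and 7915 in KO against 10061, 9337 and 9764 in WT (-0.40, unadjusted p = 0.0250, limma adjusted p = 0.607), and the opposite end was 17543580 (0.01).

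The difference of Il13ra1 was then set against that of each other member within the arrays, as a log2 ratio that cancels any shift an array applies to both genes. The ratio of Il13ra1 to Il4ra was -4.42, -4.22 and -4.65 in KO replicates 1 to 3, against -2.82, -2.78 and -3.18 in WT replicates 1 to 3. The levels of the ratio depend on the probes, and only its difference between groups, -1.50, can be read. For the ratio to Il2rg the difference was -1.29, with -5.37, -5.19 and -5.47 in KO against -4.02, -4.10 and -4.05 in WT. In all 8 ratios the 3 KO values lay below the 3 WT values, with differences between -1.53 (to Il9r) and -1.29 (to Il2rg). All 8 share Il13ra1, whose groups were already known to lie apart, while the other genes differed by at most 0.15. The ratios therefore restate the difference of Il13ra1 and are no separate support for it. An exact two-sided permutation test gave p = 0.10 for each (n = 3 each), the smallest value it can give, and 0.10 after adjustment over the 8.

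**Figure D3:**
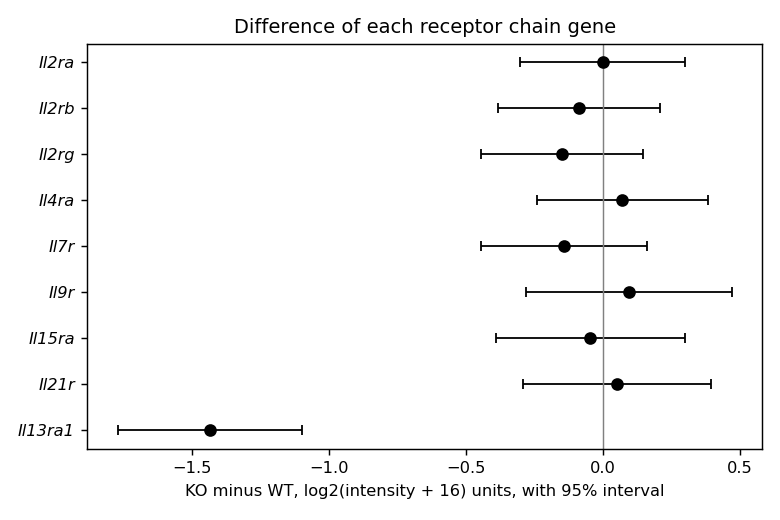
Difference between KO and WT Tregs for each of the 9 genes, in log2(intensity + 16) units, with the 95% interval from limma (n = 3 each). The interval of Il13ra1 runs from -1.77 to -1.10, and those of the other 8 genes all include 0 and lie within -0.44 and 0.47.

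Both other chains of the IL-2 receptor were among the genes that did not pass. Il2ra encodes CD25, on which the cells were sorted, so its level is tied to the gate. It was at 12.69, 12.45 and 12.52 in KO replicates 1 to 3, against 12.52, 12.54 and 12.61 in WT replicates 1 to 3. KO replicates 1 and 2 were the highest and the lowest of the 6, and the difference was -0.00 (95% interval -0.30 to 0.30, limma adjusted p = 0.998), with a sign that turned under several alternatives. Its 10 probe sets lay between -0.09 (17366996) and 0.11 (17367000), and in 0 of them were the groups apart. Il2rb, the signalling chain shared by the receptors of IL-2 and IL-15, was at 12.35, 12.23 and 12.46 in KO, against 12.39, 12.46 and 12.45 in WT. The groups overlapped, and the difference was -0.09 (95% interval -0.38 to 0.21, limma adjusted p = 0.843). Of its 12 probe sets 10 had differences below 0, from -0.17 in 17319015 to 0.08 in 17319020. In 1 the groups lay apart, as in 13.8% of all probe sets.

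Il7r encodes the receptor chain for IL-7, the survival cytokine of naive and memory T cells. It was at 12.15, 12.35 and 12.40 in KO replicates 1 to 3, against 12.40, 12.43 and 12.48 in WT replicates 1 to 3. The groups did not overlap, as in 17.4% of all tested genes, but KO replicate 3 and WT replicate 1 were the same to 2 decimals. The difference was -0.14 (95% interval -0.44 to 0.16, limma adjusted p = 0.743), and -0.07 without KO replicate 1. Of its 10 probe sets 9 had differences below 0, and 4 had KO arrays below all WT arrays, as 7.64% of all probe sets had. The lowest probe set was 17315898, with 3212, 5100 and 5381 in KO against 5763, 5395 and 5572 in WT (-0.32). KO replicate 1 was the lowest of the 6 there. The opposite end was 17315899 (0.14).

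Il15ra, which presents IL-15 to cells that carry Il2rb and Il2rg, was the member whose probe sets differed most among themselves after Il13ra1. As a gene it was at 8.21, 7.84 and 7.97 in KO replicates 1 to 3, against 8.10, 8.19 and 7.88 in WT replicates 1 to 3. The groups overlapped, with a difference of -0.05 (95% interval -0.39 to 0.30, limma adjusted p = 0.939). Of its 14 probe sets 10 had differences below 0, with a median of -0.22. In 4 the KO arrays lay below all WT arrays, as in 7.64% of all probe sets. Probe set 17367019 had intensities of 87.0, 130.3 and 106.7 in KO, against 243.4, 257.5 and 153.1 in WT (-0.90, unadjusted p = 0.0106, limma adjusted p = 0.554). At the other end 17367005 had 282.0, 286.9 and 189.8 in KO against 198.1, 276.9 and 226.6 in WT (0.10). With the mean of probe sets in place of the median the gene differed by -0.24 (adjusted p = 0.385), and with quantile normalization by 0.01, so its sign is not settled.

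Il21r, the receptor of IL-21, a cytokine of follicular helper T cells, was at 11.33, 11.00 and 11.05 in KO replicates 1 to 3, against 11.20, 11.12 and 10.91 in WT replicates 1 to 3. The difference was 0.05 (95% interval -0.29 to 0.39, limma adjusted p = 0.933) and turned negative with the mean of probe sets, with array weights and without KO replicate 1 or WT replicate 3. Its 9 probe sets ran from -0.26 (17482968) to 0.17 (17482960). Il9r, the receptor of the mast cell and T cell growth factor IL-9, was at 8.03, 7.98 and 8.15 in KO, against 7.85, 7.75 and 8.29 in WT. WT replicate 3 was the highest of the 6 and WT replicate 2 the lowest, and the difference was 0.09 (95% interval -0.28 to 0.47, limma adjusted p = 0.872), turning to -0.01 without WT replicate 2. Its 11 probe sets ran from -0.19 (17261459) to 0.27 (17261464), and in 0 of them were the groups apart.

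**Figure D4:**
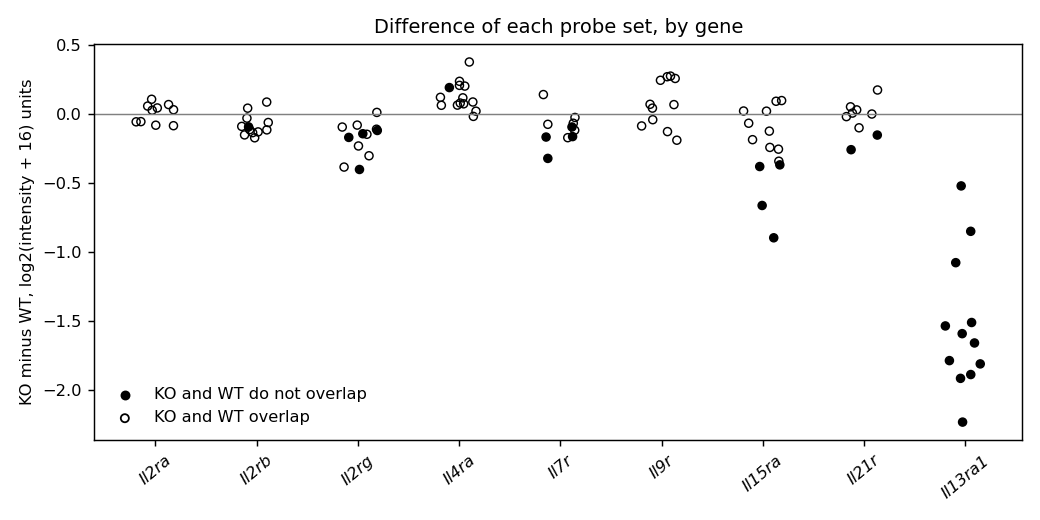
Difference between KO and WT Tregs for each of the 104 probe sets, in log2(intensity + 16) units, by gene, with filled points where the 3 KO and 3 WT arrays do not overlap and open points where they do. All 12 Il13ra1 points are filled and lie between -2.24 and -0.52, and the 92 points of the other genes lie between -0.90 and 0.38 with 16 filled.

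Among the 8 genes other than Il13ra1, 16 of 92 probe sets had groups that did not overlap, where 13.8% of all probe sets on the array had none. Of the 16, 15 were lower in KO, where 7.64% of all probe sets on the array were lower without overlap, and 1 (of Il4ra) was higher. The 15 came from 5 genes, 4 each from Il2rg, Il7r and Il15ra, 2 from Il21r and 1 from Il2rb, and probe sets of 1 gene read the same RNA. The share of all probe sets on the array with differences below 0 was not counted. An unadjusted p under 0.05 was reached by 3 of the 92, 2 of Il15ra and 1 of Il2rg, and an adjusted p of 0.05 by 0, in the moderated, the unmoderated and the weighted test alike. The 95% intervals of these 8 genes allow a level up to 1.36-fold lower (Il2rg) or 1.385-fold higher (Il9r) in KO on this scale, so smaller changes could not be seen with 3 mice a group. In the RefSeq table of GRCm38.p6, Il4ra and Il21r are neighbouring protein-coding genes, as are Il2ra and Il15ra. None of the 9 lies on the chromosome of Park7.

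Genes around these receptors were counted from lists. Of the 8 ligand genes, Il13 and Il21 passed the filter on low values and 0 passed the test. Il21 was at 6.64, 5.89 and 6.20 in KO replicates 1 to 3, against 6.77, 7.24 and 7.08 in WT replicates 1 to 3 (-0.79, limma adjusted p = 0.221). Its groups did not overlap. Il13 differed by -0.12 (adjusted p = 0.807). Of 4 further cytokine receptor chains, Il13ra2, the decoy receptor of IL-13 (4.80 in KO, 4.67 in WT), and Osmr (5.10 in KO, 5.23 in WT) did not pass the filter. Neither of the 2 tested genes passed the test. Those were Crlf2, which pairs with Il7r to bind thymic stromal lymphopoietin (-0.39, adjusted p = 0.425), and Il6st, the signalling chain of the IL-6 family (0.00, adjusted p = 0.996).

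Of 16 tested JAK, STAT and feedback genes 0 passed with limma (2 at an unadjusted p under 0.05, which 10.7% of all tested genes reached), with a median of -0.07 beside -0.05 for all tested genes. The 3 with the smallest p were the phosphatases Ptpn6 (0.33, adjusted p = 0.408) and Ptpn2 (-0.37, adjusted p = 0.424) and the IL-4 and IL-13 signal carrier Stat6 (0.28, adjusted p = 0.537). Array weights and the unmoderated test passed 0 of the list as well.

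Of 20 targets of IL-2 and STAT5, 3 fell and 0 rose, with a median of -0.26 and 15 differences below 0. Among all tested genes 0.274% passed, the median was -0.05 and 59.7% of differences were below 0. Tnfrsf9, the costimulatory receptor 4-1BB, was at 8.99, 9.73 and 8.15 in KO replicates 1 to 3, against 11.34, 11.49 and 11.23 in WT replicates 1 to 3 (-2.40, limma adjusted p = 0.0209). Tnfrsf1b, a receptor of tumour necrosis factor, was at 10.53, 10.64 and 10.28 in KO, against 11.58, 11.49 and 11.52 in WT (-1.05, limma adjusted p = 0.0224). Nfil3, a basic leucine zipper transcription factor, was at 7.59, 7.82 and 7.31 in KO, against 8.69, 8.99 and 8.63 in WT (-1.19, limma adjusted p = 0.0282). In all 3 the groups lay apart. In the RefSeq table Tnfrsf9 is the protein-coding gene next to Park7 and Tnfrsf1b lies on the same chromosome, with 71 protein-coding genes in between. Of the 16 tested targets on other chromosomes 1 fell, Nfil3, with a median of -0.19 over the 16. Whether a place near Park7 has a part in these differences was not tested. These are also targets of other signals. The direct feedback targets Cish (-0.30, SE 0.16, limma adjusted p = 0.563) and Socs2 (0.00, SE 0.20, limma adjusted p = 0.999), picked with their values known, did not pass. Whether IL-2 and STAT5 signalling has a part in the differences of this list was not tested. The count of 3 was 0 without any 1 of the WT arrays and 1 without KO replicate 3. Of 6 tested targets of IL-4 and IL-13 and STAT6, Nfil3 again was the 1 that passed (0 without any 1 of the WT arrays or KO replicate 3), with a median of -0.29, and the other 7 of that list, among them the macrophage genes Retnla and Mrc1, did not pass the filter. The lists were written with earlier results on Tnfrsf9, Tnfrsf1b and Nfil3 known, so their counts are no independent evidence of direction.

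By the array-by-array deviation from each gene's own mean, the gene most like Il13ra1 was Nfil3, with a root mean square difference of 0.16 log2 units over the 6 arrays. It was followed by Clip3 (0.16), Rin2 (0.17), Lag3 (0.20) and Lilrb4 (0.20). Rin2 encodes a guanine exchange factor for Rab5, Lag3 an inhibitory receptor for MHC class II, and Lilrb4 an inhibitory receptor whose near-identical copy Gp49a leaves its signal uncertain. In KO replicates 1 to 3 Clip3 was at 7.33, 7.60 and 7.28, against 8.58, 8.52 and 8.49 in WT replicates 1 to 3. As for Il13ra1, KO replicate 2 was the highest KO array in all 5 of these genes. Because the genes were picked for this likeness out of 13891, the likeness is a description.

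**Figure D5:**
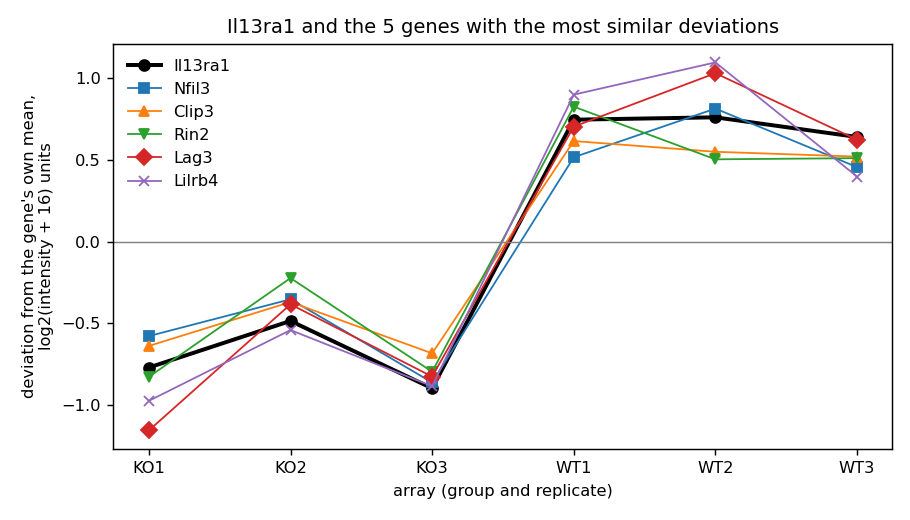
Deviation of Il13ra1 (black) and of the 5 genes most like it from each gene's own mean over the 6 arrays, in log2(intensity + 16) units, with the KO arrays left of the WT arrays. All 6 genes lie below their mean on the KO arrays and above it on the WT arrays, with KO replicate 2 the highest of the KO arrays, at 6.91 for Il13ra1.

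Markers of cells other than Tregs were followed beside Il13ra1, since macrophages and some other cells also carry it. Of 14 macrophage and monocyte genes 7 passed the filter, all 7 with differences below 0 (median -0.35). Of all tested differences 59.7% were below 0, with a median of -0.05. Vcam1, an adhesion molecule, fell (6.07, 5.86 and 6.10 in KO replicates 1 to 3, against 7.02, 7.51 and 6.96 in WT replicates 1 to 3, limma adjusted p = 0.0343). Among genes the filter left out, Fcgr1 ran the other way (5.69, 5.76 and 5.52 in KO, against 5.46, 5.27 and 5.18 in WT). The rest of those left out had lower means in KO. Fcgr1 is named with its values known. Csf1r, the receptor of macrophage colony-stimulating factor, averaged 5.84 ± 0.17 in KO and 6.37 ± 0.29 in WT (SD, n = 3 each), with a limma adjusted p of 0.318. It lay near the filter floor of 5.90, with its KO mean below that floor, so the WT arrays carried it past the filter. In Csf1r, C1qc and Vcam1, 3 of the 7 tested, KO arrays lay below all WT arrays, as in 11.3% of all tested genes. The same 3 had a limma unadjusted p under 0.05, as 10.7% of all tested genes did. C1qc (-0.47, limma adjusted p = 0.296), named with its values known, also lay near the floor, at 5.91 in KO and 6.38 in WT. The summed intensity of the 14 genes was 739 to 935 in KO and 900.0 to 1385 in WT, and the ranges overlapped. The part of such cells in the Il13ra1 difference was not tested.

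Of 10 B cell genes 9 were matched and 4 tested, with 0 past the threshold and a summed intensity of 1324 to 1550 in KO and 1174 to 1628 in WT. Cd79a, a chain of the B cell receptor, differed by -0.23 (limma adjusted p = 0.764). Fcmr, the receptor for immunoglobulin M (Faim3 in the annotation), had the smallest p of the list and ran the other way, at 7.95, 8.52 and 8.20 in KO replicates 1 to 3, against 7.35, 7.39 and 7.57 in WT replicates 1 to 3 (0.79, limma adjusted p = 0.128). The sums were 511 to 597 in KO and 545 to 655 in WT for 8 dendritic cell genes, 1410 to 1827 in KO and 1853 to 2479 in WT for 7 NK cell genes, and 193 to 233 in KO and 220 to 244 in WT for 6 mast cell and basophil genes. For 6 genes of type 2 helper cells and type 2 innate lymphoid cells they were 750 to 929 in KO and 897 to 1034 in WT. Of these sums, that of the NK cell genes was the 1 whose groups did not overlap, and 0 genes of these lists passed the test. The 6 tested NK cell genes had 3 differences below 0 and 3 above 0, with a median of 0.01. Nkg7 was the brightest of the 7 matched genes (mean level 9.94 in KO, 10.51 in WT), so the NK cell sum mostly follows it. Nkg7, a granule protein, differed by -0.57 (limma adjusted p = 0.362) and the activating receptor Ncr1 by -0.85 (0.212), each with KO arrays below all WT arrays, while the receptor gene Klrb1c differed by 0.28 (0.552) with KO arrays above all WT arrays. Fcmr, Nkg7, Ncr1 and Klrb1c are named with their values known. No matched marker of these lists was under an intensity of 16 on all 6 arrays, and no background level was used to call one absent. The sum of 8 Treg genes was 32515 to 35609 in KO and 36477 to 36697 in WT, again without overlap, with 0 genes past the threshold. Such a sum is weighted to the brightest genes. Of the 8, 7 had differences below 0, with a median of -0.10. In 2 of them KO arrays lay below all WT arrays, as in 11.3% of all tested genes. Foxp3 went the other way, with KO arrays above all WT arrays (0.06, limma adjusted p = 0.886).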

How the data were processed

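Per the labels, the authors' deposited values are intensities of exon-level probe sets, summarised with PLIER in Affymetrix Expression Console 1.4. For background correction, normalization between arrays and the genome build, the steps are not given in the sources used here. Sample titles gave groups and replicate numbers.

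Intensities were transformed as log2(intensity + 16) without further normalization. Of 269751 probe sets 233753 had 1 symbol in the platform annotation, 5106 had several and 30892 had none. The median over the probe sets with that symbol alone was taken as a gene's value. Genes with a mean under the 40th percentile (5.90) were left out. The groups were tested in R 4.3.3 by limma 3.58.1 (functions lmFit and eBayes, two-sided), with Benjamini-Hochberg adjustment over all tested genes or all probe sets and a threshold of 0.05. The gene test was checked on simulated data.

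The text names all 9 members, every probe set of a member past the threshold and the extreme probe sets of the others, genes of pathway lists past the threshold (otherwise the 3 with the smallest p), marker genes past it, Park7, Foxp3, Cd4, Csf1r, Cd79a and the 5 genes most like a member past the threshold. Members and lists were chosen with earlier results of these data known. Pathway list genes are named as matched by symbol or unique synonym. Same-numbered KO and WT arrays had deviations from their group means that correlated at 0.15, 0.17 and 0.01. For differently numbered arrays the correlations ran from -0.19 to 0.09. These values do not settle whether the numbers pair the mice. The main test did not pair them, and a replicate block was run as an alternative. Alternatives were other pseudocounts, filters, probe set summaries, normalizations and variance models, the replicate block and leaving out each array.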

Additional observations from a re-analysis of the deposited data

How the results depend on the processing

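The difference of Il13ra1 was below 0 under all 17 alternatives, and it was past the threshold except in the unmoderated test (-1.43, 0 members and 0 genes past the threshold, 1335 genes at an unadjusted p under 0.05) and without any 1 WT array. Leaving out 1 array at a time gave -1.55 to -1.34 for Il13ra1, 0 to 1 members, 4 to 37 of all genes and 0 to 2 of all probe sets past the threshold. These fits have fewer arrays. The 8 ratios of Il13ra1 to the other members, which all share Il13ra1, kept their sign under every alternative run. All genes past the threshold numbered 60 with the mean of probe sets, 125 with array weights and 67 with the replicate block, against 38. Probe sets past it numbered 79 and 8 with pseudocounts of 1 and 64, 7 with quantile normalization, 10 with median centring, 6 in the unmoderated test, 7 with array weights and 0 with the replicate block, against 3, and 0 were of members in each. The block changed no call of a member (Il13ra1 -1.43, adjusted p = 0.00564). Ligand genes past the threshold numbered 1 with the mean of probe sets and with array weights. STAT5 targets numbered 0 in the unmoderated test and 0 to 3 with an array left out, against 3. STAT6 targets numbered 0 with the mean of probe sets and in the unmoderated test, 2 with array weights and 0 to 1 with an array left out, against 1. Signs of members that did not pass turned as follows. Il2ra was at 0.004 with the mean of probe sets, 0.0032 with quantile normalization and 0.034 with median centring, and at -0.070 to 0.050 with an array left out. Il21r was at -0.0315 with the mean of probe sets, -0.039 with array weights and -0.053 to 0.11 with an array left out. Il15ra was at 0.0099 with quantile normalization and -0.15 to 0.037 with an array left out, and Il9r at -0.011 to 0.26 with an array left out. The cause was not tested. Signal over background limits the dim probe sets.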
